A study of Mus musculus with 6 samples.

Results

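The dystrophin glycoprotein complex was examined through 8 genes of its main building blocks, Dmd, Utrn, Dag1, Sgca, Sgcb, Sgcd, Sntb1 and Dtna, in microarrays of the quadriceps of AR97Q mice. The genes were chosen by name as parts of the complex, with earlier results of these data known. All 8 were found among the 44931 genes and transcripts on the array. They were matched to 18 probes through the transcript record each probe was designed against, and 17 of these probes passed the filter on dim probes, so that each of the 8 genes had at least 1 measured probe. AR97Q mice carry a human androgen receptor transgene with an expanded CAG repeat and are a model of spinal and bulbar muscular atrophy, a disease of motor neurons and muscle. Both groups were male AR97Q mice of 9 weeks of age and both carried the transgene, so no wild-type muscle was compared here. Mice of the exercise group (n = 3) had run on a forced wheel at low to moderate intensity in the weeks before symptoms, and mice of the sedentary group (n = 3) had not. The comparison asked which transcripts differed in muscle at the end of the exercise period.

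In skeletal muscle the complex links the actin cytoskeleton inside the fibre to laminin in the matrix outside it. Dystrophin binds actin and the membrane protein dystroglycan, the sarcoglycans lie beside dystroglycan in the membrane, and dystrobrevins and syntrophins bind dystrophin on the inner side and hold signalling proteins there. Loss of dystrophin causes Duchenne muscular dystrophy and loss of a sarcoglycan causes a limb-girdle muscular dystrophy.

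Of the 8 genes, Sgca (alpha-sarcoglycan) rose with exercise by 1.36-fold, and no gene fell. Dmd and Utrn were lower on all 3 exercise arrays than on all 3 sedentary arrays, by 0.32 and 0.31 on the log2 scale, and Sgcd was higher by 0.36, but none of these 3 passed the test. Dag1, Sgcb, Sntb1 and Dtna overlapped between the groups. A gene was called when its adjusted p in limma, corrected over all 25005 genes and transcripts tested, was under 0.05. With 1 of 8 genes called higher, against 11.5% of all tested, and 0 of 8 called lower, against 6.15%, the share was close to that of the whole array. Likewise 2 of 8 lay above the sedentary arrays without overlap, against 25.0% of all tested, and 2 of 8 lay below, against 18.2%. The median log2 fold change of the 8 genes was -0.0048, and that of all genes and transcripts was 0.025. None of the 8 reached an absolute log2 fold change of 1.

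Levels are log2 processed signals relative to the 75th percentile of each array, and a level of 1 probe cannot be set against that of another. That percentile ranged from 251 to 257 signal units with exercise and from 310.5 to 384 without, so that scaling raised the exercise values relative to the sedentary ones. Between 54.6% and 59.9% of probes were well above background. All 6 arrays were scanned together on 1 slide, but the 3 exercise arrays and sedentary replicate 1 shared a strip of it, and sedentary replicates 2 and 3 were in the other strip. In each strip comparison given here the 3 exercise arrays were set against sedentary replicate 1 alone, which gives a difference but no spread for the sedentary side. With the strip as a block, limma called 3 of 25005 genes and transcripts and none of the 8 (4828 had an unadjusted p under 0.05). The study's methods give 3 mice per group, and the labels do not say how mice map to arrays, so the p-values measure the spread between these arrays. In whole muscle, fewer cells of a type and less RNA per cell cannot be told apart.

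Dmd encodes dystrophin, the long rod-shaped linker of the complex. Its level was 1.51, 1.25 and 1.49 on exercise arrays 1 to 3 and 1.65, 1.68 and 1.86 on sedentary arrays 1 to 3. Every exercise array was therefore below every sedentary array, with exercise replicate 2 the lowest. This gave a log2 fold change of -0.32 (SE 0.11), with an adjusted p of 0.0984 in limma, and against sedentary replicate 1 in the same strip it was -0.24. A second probe for Dmd differed by -0.49 (SE 0.12) and a dimmer probe by -0.59 (SE 0.20), each without overlap between the groups. The fourth probe, designed against a predicted transcript, was not above background on the arrays of either group. All 3 measured probes thus had the same direction.

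Utrn encodes utrophin, the homologue of dystrophin that in mature fibres is concentrated at the neuromuscular and myotendinous junctions. Its level was 2.51, 2.81 and 2.67 on the exercise arrays and 3.01, 2.93 and 2.97 on the sedentary arrays. The sedentary arrays lay close together, with an SD of 0.04, and all exercise arrays were below them with an SD of 0.15. The log2 fold change was -0.31 (SE 0.10), with an adjusted p of 0.0818 in limma, and -0.35 within the shared strip. Of the other probes of Utrn, 1 differed by -0.35 without overlap, and the remaining ones differed by -0.10 and -0.07 and overlapped between the groups. The probes of Utrn thus shared a sign but not a size. The call depended on the scaling of the arrays. Utrn differed by -0.42 (adjusted p = 0.0464 in limma) after quantile normalization and by -0.47 (adjusted p = 0.0367) in the deposited table of values, but by -0.22 (adjusted p = 0.352) when scaled to the array median.

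**Figure D1:**
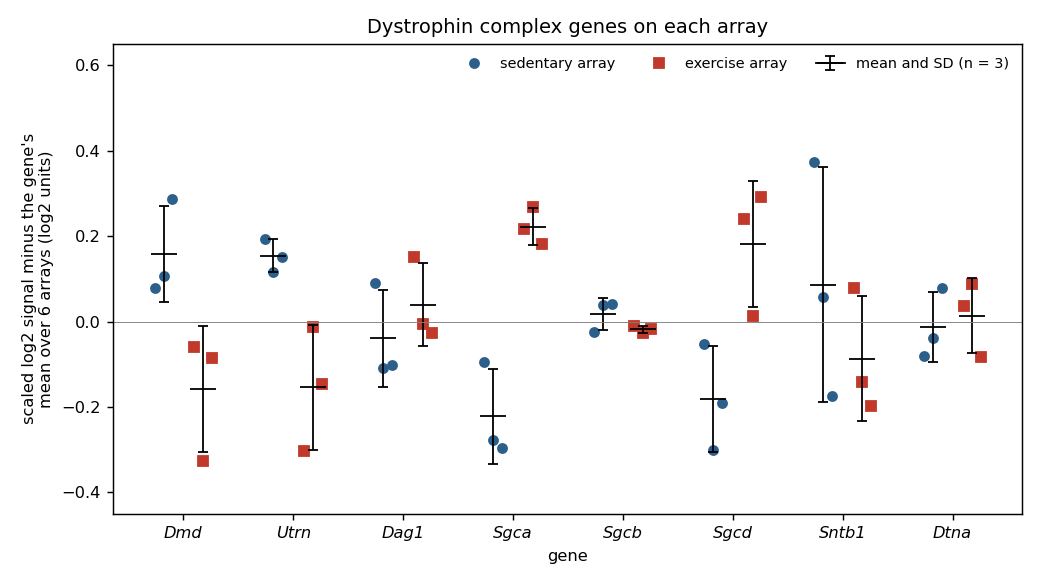
Scaled log2 signal of each of the 8 genes on each array minus the gene's mean over the 6 arrays, in log2 units; points are arrays (circles sedentary, squares exercise) and bars are the mean and SD (n = 3). Sgca and Sgcd were higher on every exercise array, Dmd and Utrn were lower on every exercise array, and the other genes overlapped between the groups.

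Dag1 encodes the precursor of alpha- and beta-dystroglycan, the laminin receptor at the centre of the complex. Its level was 5.75, 5.59 and 5.57 with exercise and 5.69, 5.49 and 5.50 without. The groups overlapped, and the log2 fold change of 0.079 (SE 0.10) had an adjusted p of 0.600 in limma. Its direction changed with the scaling of the arrays, and 1 probe measured the gene.

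Sgca encodes alpha-sarcoglycan, a glycoprotein of striated muscle, and was the gene of the 8 that passed the test. Its level was 4.73, 4.78 and 4.69 on the exercise arrays and 4.42, 4.23 and 4.21 on the sedentary arrays. The exercise arrays lay within an SD of 0.04 and all were above the sedentary arrays, of which replicate 1 was the nearest to them. Sgca had a log2 fold change of 0.44 (SE 0.09), with an adjusted p of 0.0299 in limma. The other probe of Sgca, at 4.26, 4.20 and 4.18 against 3.80, 3.72 and 3.56, differed by 0.52 (SE 0.10), again without overlap. Within the shared strip the difference in Sgca was 0.32, and with the strip as a block the adjusted p was 0.215. Without any 1 of the 6 arrays in turn the log2 fold change was 0.41 to 0.51, but the adjusted p was under 0.05 only without sedentary replicate 1 and reached 0.113 without another array. Without scaling of the arrays the difference was -0.028, and after quantile normalization it was 0.25 with an adjusted p of 0.0951.

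The other sarcoglycans among the 8 did not pass the test. Sgcd, which encodes delta-sarcoglycan, had levels of 2.26, 2.03 and 2.31 with exercise and of 1.96, 1.71 and 1.83 without. All exercise arrays were above all sedentary arrays, the nearest being exercise replicate 2 and sedentary replicate 1. The log2 fold change was 0.36 (SE 0.12), with an adjusted p of 0.0758 in limma, and 0.24 within the shared strip, and its other probe differed by 0.33 (SE 0.15) with overlap. Sgcb, which encodes beta-sarcoglycan, was at 3.76, 3.74 and 3.75 with exercise and at 3.74, 3.80 and 3.81 without. Its arrays spanned a narrow range in both groups, and the log2 fold change of -0.036 (SE 0.08) had an adjusted p of 0.754.

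Sntb1 encodes beta-1-syntrophin, an adaptor that binds dystrophin and dystrobrevin. It was the dimmest of the 8 relative to background, being well above background on 1 of 3 exercise arrays and on 3 of 3 sedentary arrays. Its level was -3.99, -4.21 and -4.27 with exercise and -3.69, -4.01 and -4.24 without, and the groups overlapped. Its log2 fold change was -0.17 (SE 0.16), with an adjusted p of 0.471 in limma. This difference turned to 0.29 (adjusted p = 0.0411) when the background was corrected with normexp, so no direction is given for Sntb1.

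Dtna encodes alpha-dystrobrevin, a relative of dystrophin that binds syntrophins. The probe that stood for the gene was at 1.18, 1.23 and 1.06 with exercise and at 1.06, 1.10 and 1.22 without. The groups overlapped, and the log2 fold change of 0.026 (SE 0.09) had an adjusted p of 0.856 in limma. The other probes of Dtna, each designed against another transcript record, behaved differently. The brighter of them was at 0.60, 0.64 and 0.39 against 0.35, 0.17 and 0.04, a difference of 0.36 (SE 0.12). The dimmer was at -1.68, -1.66 and -1.79 against -2.05, -2.33 and -2.09, a difference of 0.45 (SE 0.11). Both were higher on every exercise array, while the brightest probe of the gene was not, so the 3 probes of Dtna disagreed.

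**Figure D2:**
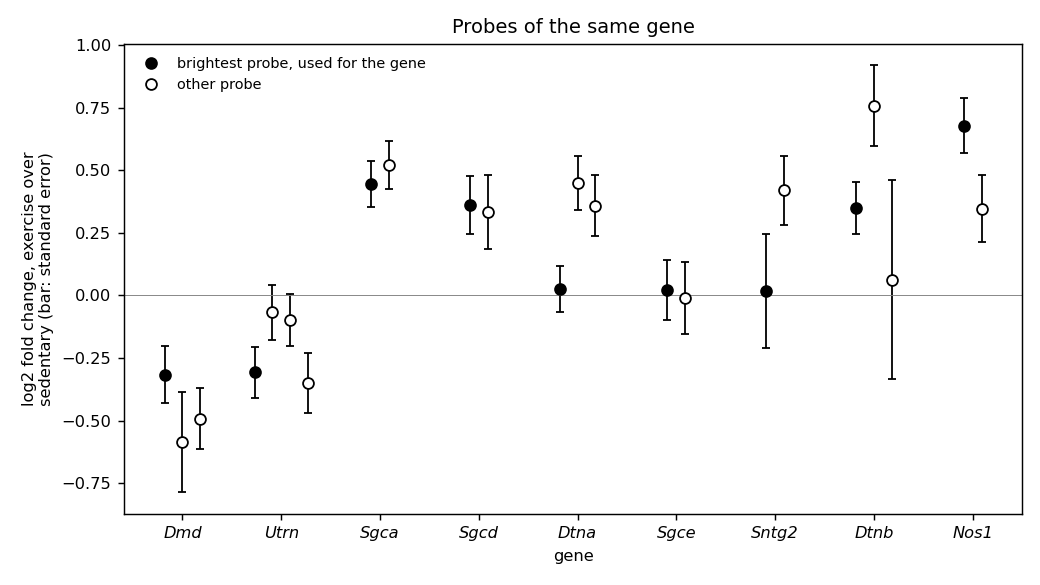
Log2 fold change, exercise over sedentary (3 arrays per group), of every measured probe of the genes of the complex with more than 1 measured probe; bars are standard errors, and filled points are the brightest probe, which stood for the gene. The 3 probes of Dmd lie below 0 and both probes of Sgca lie above 0, whereas the probes of Dtna lie at 0.026, 0.36 and 0.45.

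Differences between the genes were also taken within each array, where a single scaling factor cancels. The difference Dmd minus Sgca was -3.21, -3.53 and -3.20 on the exercise arrays and -2.76, -2.55 and -2.35 on the sedentary arrays. The exercise arrays were all below the sedentary arrays, by -0.76. The corresponding shift was -0.75 for Utrn minus Sgca, -0.68 for Dmd minus Sgcd and -0.67 for Utrn minus Sgcd, again without overlap. Dmd and Utrn were already below, and Sgca and Sgcd above, on every exercise array. None of these differences could therefore overlap, and their separation adds no evidence to that of the single genes. By contrast, Dmd minus Utrn shifted by -0.0081 and Sgca minus Sgcd by 0.081, and both overlapped between the groups. Of the 28 pairs of the 8 genes, 17 did not overlap between the groups, against 40.7% of all pairs of genes and transcripts tested. These pairs share genes and arrays, and an exact two-sided permutation test of 3 against 3 arrays cannot go below p = 0.1, which 17 pairs reached (adjusted p = 0.165 over 28 pairs). The shift of Dmd minus Sgca lay between -0.95 and -0.55 in the 10 alternative processings that changed it, the smallest being the value within the shared strip. The other 5, among them the scalings by 1 factor per array, leave it the same by construction. The level difference between 2 probes is not a ratio of transcripts, and its shift shows that the genes differed unequally, not which of them moved.

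**Figure D3:**
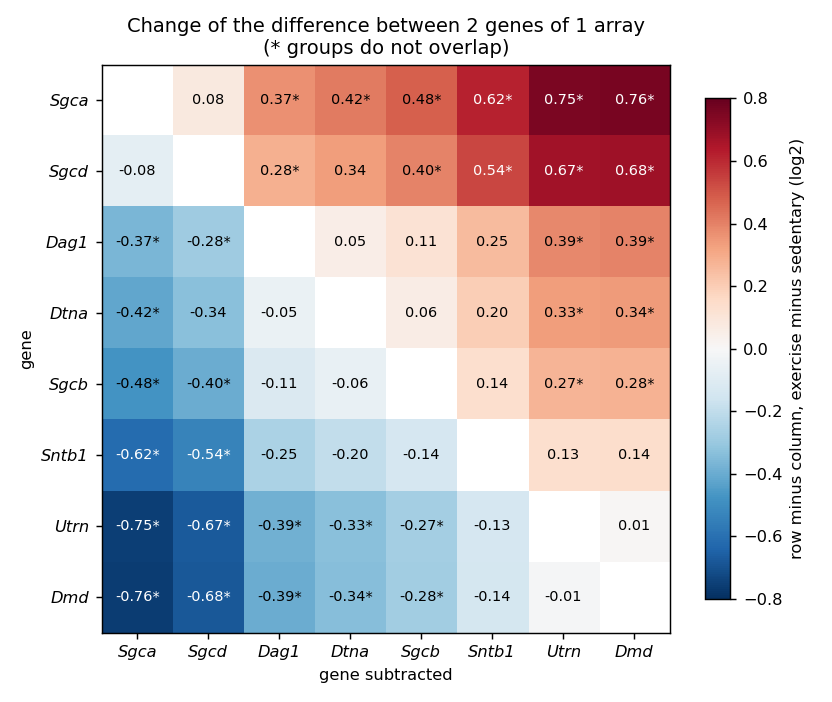
Shift between exercise and sedentary arrays in the within-array difference of each pair of the 8 genes, row gene minus column gene, in log2 units (means of 3 arrays per group), with an asterisk where the groups did not overlap. The shifts reach -0.76 for Dmd minus Sgca, while Dmd minus Utrn, at -0.0081, and Sgca minus Sgcd, at 0.081, are near 0.

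The remaining subunits and bound proteins of the complex were taken from a list of 9 genes, of which 7 were tested. Sgcz and Sntg1 were too dim to be tested, with no array on which they were well above background. Of the 7, Cav3 and Nos1 rose with exercise, none fell, and 5 did not pass the test. On all exercise arrays 4 of the 7 were above all sedentary arrays, 1 was below and 2 overlapped. Over all genes and transcripts tested the shares were 11.5% called higher, 6.15% called lower, 25.0% above and 18.2% below. The median log2 fold change of the 7 was 0.30, and it moved to 0.11 after quantile normalization, 0.14 in the deposited table, 0.39 with the array median and -0.17 without scaling.

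Cav3 encodes caveolin-3, the muscle caveolin, which binds dystroglycan and dysferlin. It was at 5.75, 5.60 and 5.63 with exercise and at 5.22, 4.77 and 4.75 without, with sedentary replicate 1 the nearest to the exercise arrays. Cav3 had a log2 fold change of 0.75 (SE 0.15), or 1.68-fold, with an adjusted p of 0.0274 in limma, and 0.45 within the shared strip.

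Nos1 encodes neuronal nitric oxide synthase, which makes the nitric oxide that widens vessels in working muscle. It was at -1.66, -1.73 and -1.80 with exercise and at -2.36, -2.60 and -2.28 without. The groups did not overlap, and here sedentary replicate 1 lay between the other sedentary arrays. The log2 fold change was 0.68 (SE 0.11), or 1.60-fold, with an adjusted p of 0.0236 in limma. Its difference within the shared strip, 0.63, was close to that over all arrays, and its second probe differed by 0.35 (SE 0.13).

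As for Sgca, the calls of Cav3 and Nos1 were kept only without sedentary replicate 1 when single arrays were left out. Their adjusted p rose to at most 0.103 and 0.0957 without another array. With the strip as a block their adjusted p was 0.173 and 0.170. Direction was kept in all 18 alternative processings for both genes, but without scaling the log2 fold change was 0.28 (adjusted p = 0.0912 in limma) for Cav3 and 0.21 (adjusted p = 0.257) for Nos1. Cav3 also lost its call after quantile normalization (adjusted p = 0.0538).

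Among the subunits that did not pass the test, Sspn, which encodes sarcospan, differed by 0.30 (adjusted p = 0.0923 in limma), Dtnb, which encodes beta-dystrobrevin, by 0.35 (adjusted p = 0.0617) and Sntb2, which encodes beta-2-syntrophin, by -0.34 (adjusted p = 0.0812). Each was without overlap between the groups. The other measured probes of Dtnb differed by 0.76 without overlap and by 0.064 with overlap. Sgce, epsilon-sarcoglycan, and Sntg2, gamma-2-syntrophin, overlapped between the groups and differed by 0.022 and 0.019. A second probe of Sgce differed by -0.012 with overlap. A second probe of Sntg2 differed by 0.42 without overlap, so the probes of Sntg2 disagreed.

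**Figure D4:**
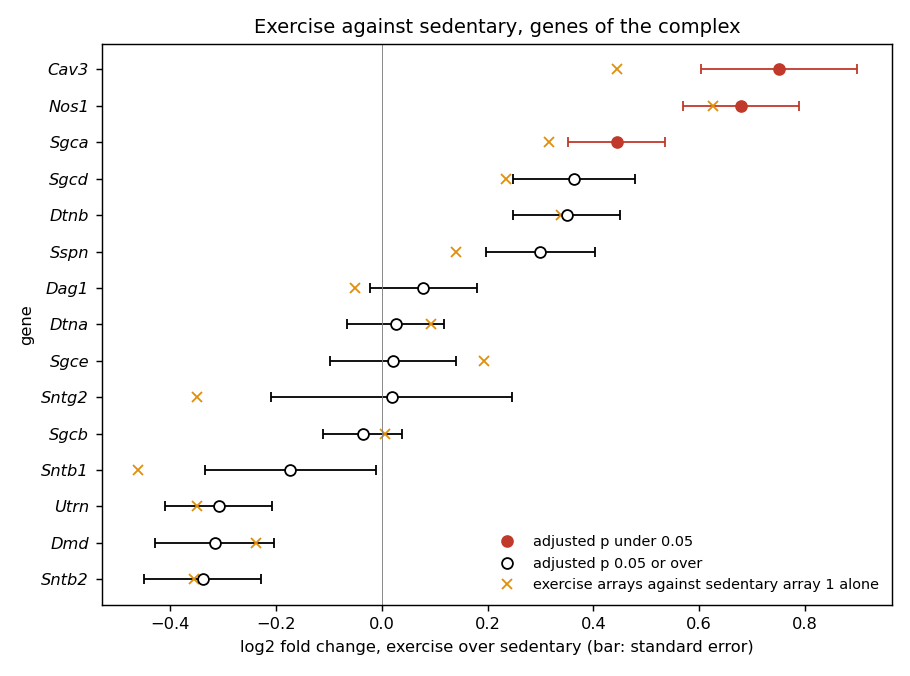
Log2 fold change (exercise over sedentary, 3 arrays each) of the 8 genes and of the 7 other subunits tested, with the standard error from limma; filled points have an adjusted p under 0.05, and crosses are the differences from sedentary replicate 1 alone, in the same strip. Cav3, Nos1 and Sgca pass the test, all above 0.

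The stretches before starts of Sgca, Cav3 and Nos1, called higher, and before a start that RefSeq gives inside the span of Dmd are shown because the sarcoglycan and Dmd differed in opposite directions. They were taken from RefSeq on GRCm38.p6, where 6 of the 8 genes and 5 of the 9 other subunits were matched. Each holds the 250 bases before a transcript start that RefSeq gives, read 5' to 3' on the strand of the gene. The E-box CANNTG, the letters bound by myogenic helix-loop-helix factors, is in capitals. Where the starts of Cav3 and Nos1 lie within their genes was not checked. Whether any of these starts was used in this muscle was not tested, so none of the stretches is shown to be a promoter. The Sgca stretch is chr11:94976328-94976577 on the minus strand, that of Cav3 is chr6:112459255-112459504 on the plus strand, that of Nos1 is chr5:117866589-117866838 on the plus strand and that of Dmd is chrX:82948620-82948869 on the plus strand.
Sgca: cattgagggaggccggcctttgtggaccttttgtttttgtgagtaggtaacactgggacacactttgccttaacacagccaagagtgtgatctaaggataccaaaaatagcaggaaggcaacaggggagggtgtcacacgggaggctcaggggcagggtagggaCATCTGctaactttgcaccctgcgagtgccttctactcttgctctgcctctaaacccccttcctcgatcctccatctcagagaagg
Cav3: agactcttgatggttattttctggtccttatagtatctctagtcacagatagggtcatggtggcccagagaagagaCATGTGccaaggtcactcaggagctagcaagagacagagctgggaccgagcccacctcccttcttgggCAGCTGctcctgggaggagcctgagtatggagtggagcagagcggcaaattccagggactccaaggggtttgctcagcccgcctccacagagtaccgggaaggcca
Nos1: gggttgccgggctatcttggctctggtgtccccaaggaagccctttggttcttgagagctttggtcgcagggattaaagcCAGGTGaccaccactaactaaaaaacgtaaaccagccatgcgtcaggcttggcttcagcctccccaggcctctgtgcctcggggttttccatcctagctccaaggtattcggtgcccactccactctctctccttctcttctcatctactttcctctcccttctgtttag
Dmd: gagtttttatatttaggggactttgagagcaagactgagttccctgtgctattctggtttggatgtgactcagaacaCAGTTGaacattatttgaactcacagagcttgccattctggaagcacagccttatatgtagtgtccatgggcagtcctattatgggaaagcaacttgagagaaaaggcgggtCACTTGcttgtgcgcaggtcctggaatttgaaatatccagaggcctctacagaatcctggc
E-boxes were searched on both strands, which hold the same letters since the motif reads alike on each. They were found 1 time for Sgca, 2 times for Cav3, 1 time for Nos1 and 2 times for Dmd, and 66.2% of all 32851 stretches of the same length held at least 1. The stretch of Dmd also held 1 match to the CArG box and 1 to the MEF2 motif, which occurred in 1.5% and 2.9% of all stretches. The stretch of the other Dmd start in the table, chrX:85048045-85048294, held 0 matches to any of these 3 motifs. Utrn had 7 E-boxes and 0 matches to the CArG box or the MEF2 motif, and its stretch also lies inside the span of the gene. The letters say nothing of which factor was bound in these muscles.

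Genes that act with the complex were taken from 5 lists with 64 genes, of which 63 were tested. Of these, 3 rose, none fell and 60 did not pass the test, while 13 were above and 14 below without overlap. The share called higher was under the 11.5% of all genes and transcripts, and the share called lower, with none, was under their 6.15%. The shares without overlap were near the 25.0% above and 18.2% below of the whole array. B3galnt2 was the 1 that rose of 17 genes that build the sugar chain of dystroglycan. B3galnt2, a glycosyltransferase of that chain, was at 3.17, 2.67 and 2.95 with exercise and at 2.46, 1.98 and 2.10 without, a log2 fold change of 0.75 (SE 0.18, adjusted p = 0.0395 in limma). It was higher on every exercise array, and the difference within the shared strip was 0.47. Of its other probes, 1 differed by 0.79 without overlap and 1 by 0.39 with overlap, and the mean of its probes did not pass the test (adjusted p = 0.0613 in limma).

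Of 13 cytoskeletal and membrane partners, Synm and Aqp4 rose and 11 did not pass the test. Synm encodes synemin, an intermediate filament protein that binds dystrobrevin and desmin. Its level was 4.64, 4.35 and 4.98 with exercise and 4.07, 3.50 and 3.46 without, a log2 fold change of 0.98 (SE 0.23, adjusted p = 0.0370 in limma). Aqp4 encodes aquaporin-4, the water channel of fast fibres, and was at 1.09, 0.93 and 1.03 against 0.69, 0.11 and 0.11, a change of 0.71 (SE 0.18, adjusted p = 0.0426). In both genes sedentary replicate 1 was the nearest to the exercise arrays, and within the shared strip the differences were 0.59 for Synm and 0.32 for Aqp4. The calls of B3galnt2, Synm and Aqp4 depended on the scaling. After quantile normalization their adjusted p in limma was 0.0567, 0.0586 and 0.0522, and in the deposited table it was 0.0765, 0.0611 and 0.0798. Without scaling their log2 fold changes were 0.28, 0.51 and 0.24, and none was called. Likewise none of the 3 was called when any 1 array other than sedentary replicate 1 was left out.

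In the other 3 lists no gene passed the test in limma. Of 10 matrix ligands tested, 5 differed upwards and 5 downwards. Of 12 integrin and costamere genes, 9 had a negative log2 fold change, 5 of them without overlap (18.2% of all tested were below), and the median was -0.13. Itgb1bp2, at 0.46, and Fermt2, at 0.40, were above without overlap. Of 11 membrane repair genes the median was 0.020, close to that of all genes and transcripts.

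Most markers of fast fibres and of denervation and regeneration differed between the groups, while slow fibre markers were mixed. Of 11 fast fibre markers, all well above background on every array, 10 rose with exercise, and the mean level of the list, centred on each gene's mean, was 0.39 to 0.62 on the exercise arrays and -0.84 to -0.10 on the sedentary arrays. Of 11 denervation and regeneration markers, 8 fell and Myh8 rose, and the list mean was -0.90 to -0.61 with exercise and 0.02 to 1.18 without. In both lists sedentary replicate 1 was the sedentary array nearest to the exercise arrays. The same held for Sgca, Cav3, B3galnt2, Synm and Aqp4, but not for Nos1, for which sedentary replicate 3 was the nearest. Sedentary replicate 1 was also the only sedentary array in the strip of the exercise arrays, and the part of the strip in this was not tested. Of 9 slow fibre markers 1 rose and 2 fell, and the list means overlapped between the groups. The part of fibre type and denervation in the differences of the complex was not tested.

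**Figure D5:**
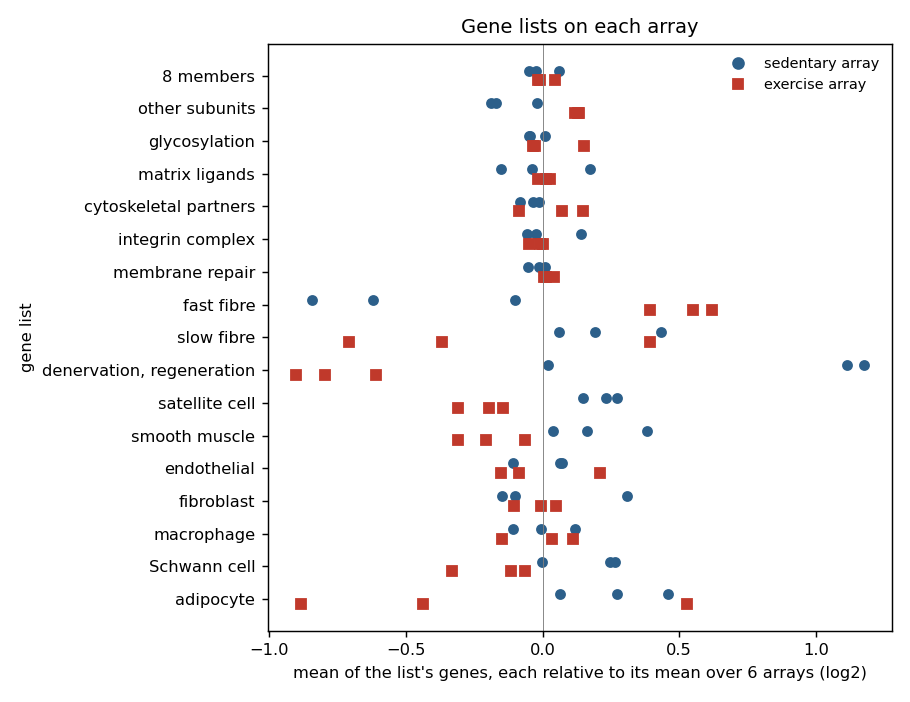
Mean level of each gene list on each array, after centring each gene on its mean over the 6 arrays, in log2 units; circles are sedentary and squares exercise arrays (3 each). The fast fibre list separates the groups with exercise higher, the denervation and regeneration list with exercise lower, and the list of 8 genes overlaps.

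Markers of other cells of the muscle were measured too. Of 3 satellite cell markers tested Pax7 fell, and none of 6 Schwann cell markers passed the test. Of 6 smooth muscle markers 1 rose, Acta2 at a log2 fold change of 1.32. Another 2 fell, Myh11 at -0.95 and Mylk at -0.58, so the smooth muscle markers disagreed. The list means of these 3 cell types were lower on every exercise array than on every sedentary array, from -0.31 to -0.15 against 0.15 to 0.27 for satellite cells, from -0.33 to -0.063 against -0.0022 to 0.27 for Schwann cells and from -0.31 to -0.06 against 0.04 to 0.38 for smooth muscle. Dmd, Utrn and Sntb2 were lower on the same arrays, and the part of these cells in that was not tested. No endothelial, fibroblast or macrophage marker passed the test in limma, with list means that overlapped between the groups, while of 6 adipocyte markers Lep rose and the other 5 had log2 fold changes from -0.997 to -0.064 without passing the test, with a list median of -0.75 and groups that overlapped.

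The tested genes most like Dmd over the 6 arrays were Rel, 1700026J14Rik, Gm16386, Fbxo28 and Hcfc1, with Pearson's r of 0.994, 0.992, 0.988, 0.987 and 0.986. With 6 arrays that form the 2 groups, and so many genes searched, these values are a description of the arrays.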

How the data were processed

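Total RNA of the quadriceps was labelled with 1 dye and hybridised to 6 Agilent mouse arrays of 62976 spots by a service company, and the intensity values that the authors deposited were made with Agilent Feature Extraction 12.1.0.3, per the file headers. The processed signal used here is background-subtracted. The deposited table of intensity values was found to be that signal multiplied by 1 factor per array (1.33 to 1.88), with no scaling stated in the sources used here. From the scanner files, control spots (3671) and outlier spots were removed, spots of a probe were averaged, and log2 values were taken minus the 75th percentile of each array. A probe was kept if at least 3 of 6 arrays showed it well above background (32726 of 56605 probes), and the probe with the highest mean stood for a gene. Symbols came from the transcript record of each probe through a RefSeq table, with 34566 probes matched and 15747 of 25005 genes and transcripts tested named. Exercise was tested against sedentary in limma (version 3.58.1, R 4.3.3), two-sided, with Benjamini-Hochberg adjustment over all 25005 and no covariates. The script was tested on simulated data with planted changes larger than those of the complex and partner genes reported here. The simulation held no strip or scaling effect, so it does not show how well changes of this size are found.

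The genes, the lists and the rules were chosen with earlier results of these data known. Named were all 8 genes with their probes, all other subunits tested, the called partner genes with the largest changes (up to 3 per list and direction), and the 5 genes most like Dmd. Itgb1bp2, Fermt2 and single marker genes were named after their values were seen. Alternatives were normexp background correction, unscaled values, quantile or array-median scaling, no filter or a filter on all arrays for dim probes, the mean of a gene's probes, the deposited table, limma with trend and robust, array weights, the replicate number and the strip as blocks, and leaving out each array. The number of arrays limits the precision. Some genes of the lists are not reported here and were left out of the list counts.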

Additional observations from a re-analysis of the deposited data

How the results depend on the processing

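The counts of genes called depended on the processing. Of the 8 genes, 0 were called higher and 1 lower after quantile normalization and in the deposited table, 0 and 6 without scaling (where the median of all genes and transcripts was -0.45), 3 and 2 with normexp, 2 and 1 with trend and robust, and 2 and 1 with array weights. Of the other subunits, 1 was called higher after quantile normalization, 0 higher and 1 lower without scaling, 4 higher with no filter on dim probes, 4 higher and 1 lower with array weights, and 1 lower in the deposited table. Of the partner genes, 1 (none of B3galnt2, Synm and Aqp4) was called higher and 4 lower after quantile normalization, 0 and 38 without scaling, 8 and 7 with normexp, 0 and 7 in the deposited table, 7 and 1 with trend and robust, and 10 and 4 with array weights, and 6 higher with the filter on all arrays, under which Sntb1 was not tested. Over all genes and transcripts the calls numbered 4406, against 11897 without scaling, 8155 with normexp, 11658 with no filter, 8756 with array weights, 3 with the strip as a block and 0 with the replicate block. The split of 2867 higher and 1539 lower was 1172 and 3201 in the deposited table, 1865 and 1363 after quantile normalization and 2680 and 872 with the array median, which moved the median of all genes and transcripts to 0.11. With either block 0 of the 8 genes, 0 other subunits and 0 partner genes were called in limma. When each array was left out in turn, the calls numbered 0 to 1 higher of the 8 genes, 0 to 3 of the other subunits, 0 to 8 of the partner genes and 0 to 5531 of all. The highest values were those without sedentary replicate 1. Without any other array at most 1 gene or transcript was called (6680 to 8146 had an unadjusted p under 0.05).

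Deviations from the group means of same-numbered arrays correlated at 0.015, 0.085 and 0.036 across genes. Those of differently numbered arrays correlated at -0.107 to 0.075. With 3 arrays per group, these values cannot show whether the replicate numbers pair the arrays. With the replicate block the count of calls over all went to 0, with 8582 at an unadjusted p under 0.05.

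Of single-gene values under the alternatives, 213 kept direction and call status, 57 lost the call, 23 gained it and 30 changed sign. The 213 include genes that stayed uncalled, and the cause was not tested. Over the 18 alternatives, Sgca was called in 8, Cav3 in 9, Nos1 in 10, B3galnt2 in 7, Synm in 8 and Aqp4 in 8. Changes of sign without scaling were Sgca at -0.028, Sgcd -0.11, Dag1 -0.39, Dtna -0.45, Sgce -0.45, Sspn -0.17, Sntg2 -0.45 and Dtnb -0.12. With quantile normalization Dag1 was at -0.15 and Sgce at -0.10. With normexp Sntb1 was at 0.29, Dag1 at -0.010, Dtna at -0.037 and Sgce at -0.045. In the deposited table Dag1 was at -0.079, Dtna -0.13, Sgce -0.14 and Sntg2 -0.14. Sgcb was at 0.053 with the array median. With the strip as a block Dag1 was at -0.052, Sgcb at 0.0066 and Sntg2 at -0.35, and with array weights Sgce was at -0.051. With arrays left out, Dtna ranged from -0.010 to 0.075, Sgce from -0.064 to 0.072 and Sntg2 from -0.17 to 0.20. The sign changed without exercise replicate 2 or sedentary replicate 1 for Dtna and Sgce, and without exercise replicate 3, sedentary replicate 2 or sedentary replicate 3 for Sntg2.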
